A study of Homo sapiens with 8 samples.

Results

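The mRNAs of 10 protein-coding genes listed as hosts of intronic microRNAs (miRNAs) were followed in KYSE850 cells after silencing of KHSRP. They were SKA2, VMP1, SMC4, NFYC, CTDSPL, MCM7, PANK3, COPZ1, HUWE1 and SREBF2, and they were found on the arrays through the RefSeq accession of each probe, which gave 18 probes for these 10 genes among 42405 probes and 20245 genes with a symbol. KYSE850 is an established line of human esophageal squamous cell carcinoma (ESCC). Per the labels, 4 arrays held RNA of cells treated with KHSRP siRNA and 4 held RNA of cells treated with control siRNA, in the same line, and no other treatment is named. The labels give neither the siRNA sequence used on an array nor the dose or time, and they do not say whether the 4 samples of a group were separate cultures, so p-values measure the spread between these samples, which may be technical.

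KHSRP is an RNA-binding protein that takes part in the maturation of a subset of miRNAs, by contact with the terminal loop of their precursors, and in the decay and splicing of mRNAs. An intronic miRNA can be transcribed as part of its host gene's primary transcript. It is then cut out of the intron as a hairpin in the nucleus and trimmed to the mature form in the cytoplasm, while the exons are spliced into the host mRNA. Whether each miRNA here arises from its host's transcript was not tested. The arrays measured the host mRNA only, and the level of a mature miRNA or of an intronic precursor was not analysed here. The question of the comparison was therefore whether the mRNAs of the hosts moved after KHSRP silencing, and whether those that carry a miRNA on the study's list of lowered miRNAs moved otherwise than those that do not. That list holds only miRNAs past the paper's fold cut-off, so a miRNA off it may have fallen less. By qPCR, the paper also reported higher primary and precursor forms of miR-21 and miR-301a after KHSRP silencing.

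The mature miRNAs are shown because they define the hosts, and because several of them are also made from a second gene whose host can be set beside the first. Capitals mark the seed, bases 2 to 8 from the 5′ end, which pairs with target mRNAs. Sequences and positions are those of RefSeq (GRCh38.p14). Each miRNA was checked to lie within the span of its gene, while its place in an intron was not checked. For CTDSPL no strand was given. SKA2 carries miR-301a at chr17:59151149-59151171 and miR-454 at chr17:59137787-59137809, both on the minus strand like the gene, and their seeds are identical. SMC4 carries miR-15b at chr3:160404607-160404628 and miR-16 at chr3:160404754-160404775 on the plus strand, again with a common seed. VMP1 carries miR-21 at chr17:59841273-59841294 on the plus strand. NFYC carries miR-30e at chr1:40754371-40754392 and miR-30c at chr1:40757300-40757322 on the plus strand. MCM7 carries miR-106b at chr7:100094043-100094063, miR-93 at chr7:100093815-100093837 and miR-25 at chr7:100093571-100093592 on the minus strand, the first and second with a common seed. CTDSPL carries miR-26a at chr3:37969413-37969434 and PANK3 carries miR-103a at chr5:168560904-168560926.
hsa-miR-301a-3p: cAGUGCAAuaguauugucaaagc
hsa-miR-454-3p: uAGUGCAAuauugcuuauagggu
hsa-miR-15b-5p: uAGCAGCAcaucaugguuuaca
hsa-miR-16-5p: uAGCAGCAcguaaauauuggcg
hsa-miR-21-5p: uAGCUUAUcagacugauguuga
hsa-miR-30e-5p: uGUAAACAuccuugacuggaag
hsa-miR-30c-5p: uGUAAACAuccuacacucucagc
hsa-miR-106b-5p: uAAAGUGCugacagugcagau
hsa-miR-93-5p: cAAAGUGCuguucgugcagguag
hsa-miR-25-3p: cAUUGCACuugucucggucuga
hsa-miR-26a-5p: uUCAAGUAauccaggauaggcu
hsa-miR-103a-3p: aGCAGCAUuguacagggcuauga

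The remaining hosts carry miR-148b (COPZ1), miR-33a (SREBF2), and let-7f and miR-98 (HUWE1). A run of GGG, spelled on the RNA strand of the loop, stood between the arms of 3 of the 13 host hairpins with both arms in the table, which were those of miR-26a-1, miR-25 and miR-98, against 161 of 739 hairpins in all (21.8%). The loops of miR-26a-1 and miR-25 are shown with the run in capitals, since 1 lies in a host of a listed miRNA and the other does not.
miR-26a-1 loop: gugcaggucccaauGGG
miR-25 loop: cuggacgcugcccuGGG

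KHSRP itself was measured by probe A_23_P16157 at 6.03, 5.81, 6.39 and 6.08 on the control siRNA arrays and at 2.52, 2.58, 2.88 and 2.85 on the KHSRP siRNA arrays. A level here is the log2 signal of a probe minus the 75th percentile of its array, so that 0 is the brightness at that percentile. The change was −3.37 (SE 0.16, limma adjusted p = 5.95e-05), which leaves 9.66% of the control signal. A dimmer probe of the gene, A_24_P134235, passed the background criterion on the 4 control siRNA arrays but on no array of the silenced cells. Between 45.1% and 49.4% of probes were well above background on an array, and no spot was saturated.

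The arrays also fell into sets that the labels do not name. After the group means were taken out, the first principal component held 67.8% of the remaining variance and put control siRNA replicates 1 and 3 and KHSRP siRNA replicates 1 and 4 on one side (set A) and the other 4 arrays on the opposite side (set B), so each group held 2 arrays of each set. All 8 squamous markers were well above background on all 8 arrays, and their summed level (log2 of the summed linear levels) was 9.0 to 9.37 in set A and 7.66 to 8.29 in set B. It spanned 7.66 to 9.14 in the control siRNA group and 7.90 to 9.37 in the KHSRP siRNA group. Of 8 markers of other cell types, 3 (PECAM1, COL3A1 and ALB) were above background on no array and 2 (COL1A1 and DES) on all 8. The other 3 were above it on some arrays, CD3E on 5, HBB on 4 and PTPRC on 4 at a single probe. The summed levels of the 8 were 0.93 to 1.18 in control and 0.91 to 1.54 in KHSRP siRNA arrays. The part of the array sets in the results was not tested beyond the fits with a block given here. A lower level in such bulk RNA cannot tell fewer cells with the transcript from less RNA per cell.

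All 18 host probes were well above background on all 8 arrays and were tested. At the brightest probe of each gene, 2 of the 10 hosts were called, which means a limma p adjusted over all 18761 tested probes of under 0.05, and both were lower after KHSRP silencing. In the whole data set 4.05% of 12123 genes were called lower and 2.14% higher. The median change of the 10 hosts was −0.39, with 8 hosts below 0 and 2 above it (9 below under median scaling, where CTDSPL turned), against a median of 0.01 over all genes. The 4 KHSRP siRNA arrays lay entirely below the 4 control siRNA arrays for 4 hosts (SKA2, SMC4, MCM7 and COPZ1), as they did for 9.71% of all genes. With the pairs of arrays numbered as in the submitters' value table as a block, 6 hosts were called, all lower (SKA2, SMC4, MCM7, COPZ1, PANK3 and NFYC), while that fit called 17.0% of all genes lower and 15.9% higher. With the array set as a block, added after the sets were seen, 5 were called (the same without NFYC), against 9.66% of all genes lower. The sets were drawn from the very spread that this block removes, so these calls are no separate support. Each pair also shared its array set and its slide, so the block of pairs cannot be told apart from set and slide together.

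**Figure D1:**
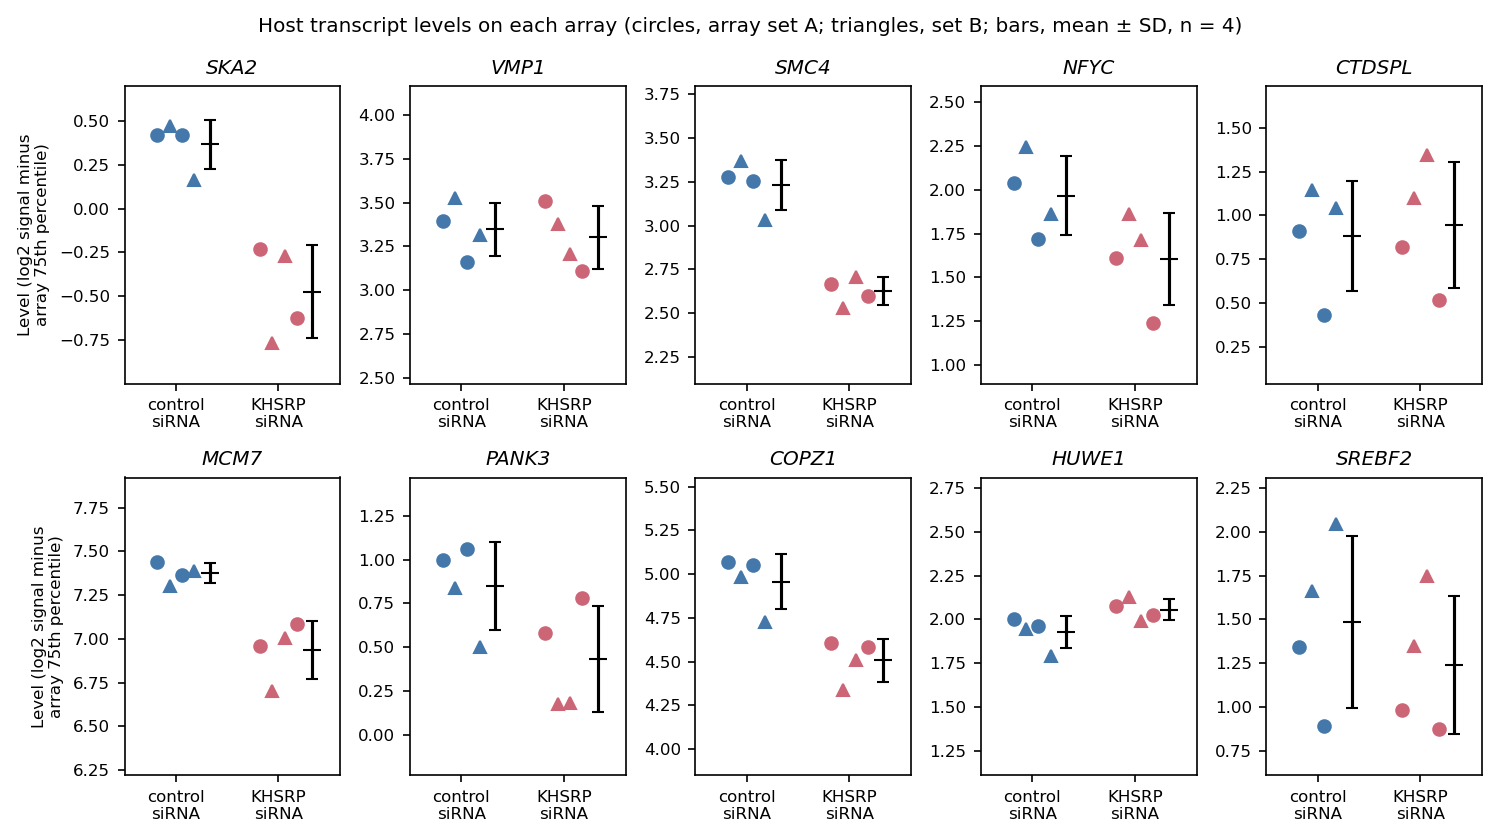
Each panel plots the level of 1 host at its brightest probe (log2 signal minus the array's 75th percentile; every panel spans the same number of log2 units) on the control siRNA arrays (blue) and the KHSRP siRNA arrays (red), with circles for array set A, triangles for set B and bars for mean ± SD (n = 4). The groups separate for SKA2, SMC4, MCM7 and COPZ1, while SREBF2 and CTDSPL follow the array set.

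The hosts with roles in cell division held both calls. SKA2, a subunit of the complex that holds kinetochores to spindle microtubules, was at 0.42, 0.47, 0.42 and 0.16 on the control siRNA arrays and at −0.23, −0.77, −0.27 and −0.63 on the KHSRP siRNA arrays (A_32_P55860). Every KHSRP siRNA array was below every control siRNA array, replicate 4 being the lowest of the controls. The change was −0.84 (SE 0.15, 95% interval −1.20 to −0.49), to 55.8% of the control signal, with a limma adjusted p of 0.0175. The call was lost when control siRNA replicate 1, 2 or 3, or else replicate 4 of the KHSRP siRNA group, was left out, where the adjusted p was between 0.0508 and 0.0645 and the change between −0.83 and −0.79. With normexp background correction the change was −0.53 (adjusted p = 0.045). The second SKA2 probe, A_24_P945000, fell by 0.87 (SE 0.10, adjusted p = 0.00317) and was called without any 1 of the 8 arrays.

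SMC4, an ATPase of the condensin complexes that compact mitotic chromosomes, was at 3.28, 3.37, 3.26 and 3.03 on the control siRNA arrays and at 2.67, 2.53, 2.71 and 2.60 on the KHSRP siRNA arrays (A_33_P3716128). The groups did not overlap and the KHSRP siRNA arrays were close to each other (SD 0.08). The change was −0.61 (SE 0.11, 95% interval −0.87 to −0.35), to 65.6% of control, with a limma adjusted p of 0.0189. Leaving out control siRNA replicate 1, 2 or 3 or KHSRP siRNA replicate 1, 2 or 4 ended the call, with adjusted p between 0.0516 and 0.0708 and changes between −0.62 and −0.56. The other probe, A_33_P3248519, changed by −0.63 with a wider spread (SE 0.22, adjusted p = 0.153 without a block and 0.0102 with the pairs as a block), and its groups overlapped.

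MCM7, a subunit of the helicase that unwinds DNA at replication origins, was at 7.44, 7.30, 7.37 and 7.39 on the control siRNA arrays and at 6.96, 6.70, 7.01 and 7.09 on the KHSRP siRNA arrays (A_23_P93690). All 4 KHSRP siRNA arrays were lower than all 4 controls. The change of −0.44 (SE 0.12, 95% interval −0.70 to −0.17) had a limma adjusted p of 0.0691, and of 0.0119 with the pairs as a block. The second probe changed by −0.35 (adjusted p = 0.145, and 0.0278 with the block), also with separate groups.

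COPZ1 and VMP1 act at membranes. COPZ1, the zeta subunit of the coatomer of Golgi vesicles, was at 5.07, 4.98, 5.05 and 4.73 on control siRNA arrays and at 4.60, 4.34, 4.51 and 4.58 on KHSRP siRNA arrays. The groups were separate, with a change of −0.45 (SE 0.12, 95% interval −0.73 to −0.17), a limma adjusted p of 0.0751 without a block and 0.0153 with the pairs as a block. VMP1, a membrane protein of the endoplasmic reticulum that takes part in autophagosome formation, was at 3.39, 3.52, 3.16 and 3.32 on control siRNA arrays and at 3.51, 3.38, 3.21 and 3.11 on KHSRP siRNA arrays. Its groups overlapped throughout. The change was −0.05 with a 95% interval of −0.35 to 0.26 (limma adjusted p = 0.916, and 0.662 with the pairs as a block), and its sign turned when replicate 2 of the control siRNA group (0.01) or replicate 4 of the KHSRP siRNA group (0.02) was left out.

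SKA2 and VMP1 lie on the same chromosome and host miR-301a and miR-21, both on the study's list. Within each array, SKA2 minus VMP1 was −2.98 ± 0.18 in control and −3.78 ± 0.28 in KHSRP siRNA arrays (mean of the log2 difference ± SD, n = 4 each; this difference between probes has no meaning as a level). The shift between the groups was −0.80 (exact permutation test, two-sided, p = 0.0286, the smallest that 4 against 4 arrays allow), and 0.0643 after adjustment over the 9 probe comparisons made.

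PANK3, a pantothenate kinase that starts coenzyme A synthesis, was at 1.0, 0.84, 1.06 and 0.50 on control siRNA arrays and at 0.58, 0.18, 0.18 and 0.78 on KHSRP siRNA arrays (A_33_P3241646). The groups overlapped, since control siRNA replicate 4 lay below KHSRP siRNA replicates 1 and 4, but within each of the 4 pairs the KHSRP siRNA array was lower, with differences of −0.66 to −0.28. The change of −0.42 (SE 0.19, 95% interval −0.85 to 0.01) had a limma adjusted p of 0.266, and of 0.0179 with the pairs as a block. The second probe, A_24_P380330, changed by −0.69 with separate groups (adjusted p = 0.0827, and 0.0031 with the block).

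NFYC, a subunit of the factor NF-Y that binds CCAAT boxes, was at 2.04, 2.25, 1.72 and 1.86 on control siRNA arrays and at 1.61, 1.86, 1.72 and 1.24 on KHSRP siRNA arrays (A_33_P3368706). The groups overlapped. The change was −0.36 (SE 0.17, 95% interval −0.75 to 0.03), with a limma adjusted p of 0.299 and of 0.0224 with the pairs as a block. Of its other probes, A_23_P22994 changed by −0.37 (95% interval −0.68 to −0.05, limma adjusted p = 0.182), with groups that overlapped. A_33_P3363665 changed by −0.41 with separate groups (95% interval −0.69 to −0.12, adjusted p = 0.104, and 0.0095 with the block). A_33_P3363674 changed by −0.02 (95% interval −0.28 to 0.24, adjusted p = 0.962). A_33_P3368706 and A_33_P3363674 carry the same RefSeq transcript accession.

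SREBF2, which encodes a transcription factor of cholesterol synthesis and uptake, was at 1.34, 1.66, 0.89 and 2.05 on control siRNA arrays and at 0.98, 1.35, 1.75 and 0.88 on KHSRP siRNA arrays. Its spread followed the array set: every array of set A was below every array of set B (mean of set A minus set B −0.68), and the change after silencing was −0.19 within set A and −0.30 within set B. Over all arrays it was −0.25 (95% interval −0.88 to 0.39, limma adjusted p = 0.726, and 0.0712 with the pairs as a block). CTDSPL, a phosphatase of the small C-terminal domain phosphatase family, was at 0.91, 1.14, 0.43 and 1.04 on control siRNA arrays and at 0.82, 1.1, 1.35 and 0.51 on KHSRP siRNA arrays. It too was lower on every array of set A than on any of set B (−0.49). The change was 0.06 (95% interval −0.44 to 0.56, limma adjusted p = 0.933), and it was −0.01 under median scaling.

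HUWE1, a ubiquitin ligase of the HECT type, was at 2.0, 1.95, 1.97 and 1.79 on control siRNA arrays and at 2.08, 2.13, 1.99 and 2.02 on KHSRP siRNA arrays (A_33_P3811287). The ranges met only at KHSRP siRNA replicate 3 and control siRNA replicate 1. The change was 0.13 (95% interval −0.10 to 0.36, limma adjusted p = 0.575), while its second probe, A_24_P932016, gave −0.14 (95% interval −0.38 to 0.10, adjusted p = 0.557).

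**Figure D2:**
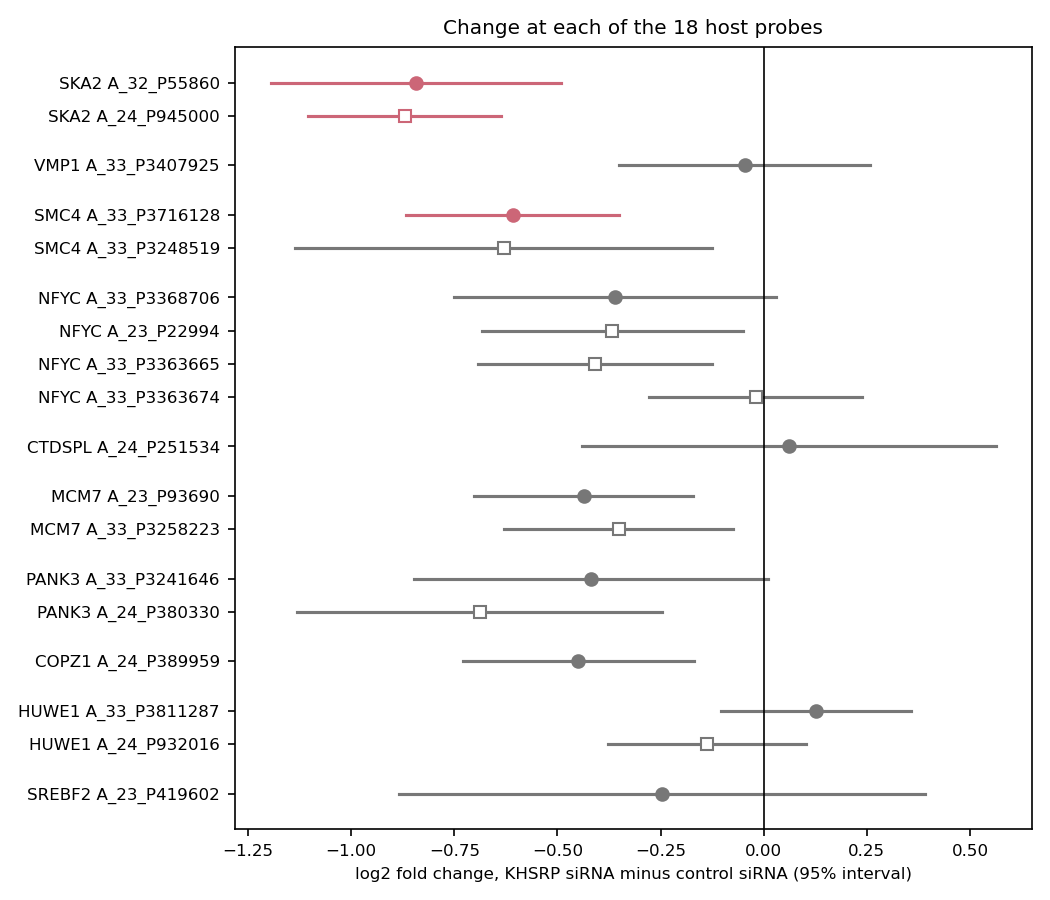
The log2 fold change (KHSRP siRNA minus control siRNA, horizontal axis) of each host probe is drawn with its 95% interval from limma, filled circles being the brightest probe of a gene, open squares the other probes, and red the probes called at an adjusted p under 0.05. Both SKA2 probes and 1 of the SMC4 probes are red, and 16 of the 18 points lie below 0.

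For 6 hosts there was more than 1 probe. Over all 18 probes 3 were called, against 5.54% of all tested probes, 16 were below 0 and 8 had groups that did not overlap with KHSRP siRNA lower, against 8.69%. Whether probes of a host moved unequally was tested on the difference between the brightest probe and each other probe within an array. The 2 groups of differences were separate for HUWE1 (the changes were apart by 0.27), for PANK3 (0.27) and for the NFYC probes A_33_P3368706 and A_33_P3363674 (−0.34), each with an exact permutation p of 0.0286 (two-sided) and 0.0643 after adjustment over 9 comparisons. They overlapped for SKA2, MCM7, SMC4 and the other NFYC probes, where exact permutation p was between 0.286 and 1.

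The hosts were then read by the status of their miRNAs. SKA2, VMP1, SMC4, CTDSPL and NFYC carry at least 1 miRNA on the study's list, and MCM7, HUWE1, SREBF2, PANK3 and COPZ1 carry none. The median change was −0.36 in the first 5 hosts, from −0.84 to 0.06, and −0.42 in the other 5, from −0.45 to 0.13. Both hosts called belonged to the first 5, and hosts whose groups did not overlap numbered 2 in each set, beside 9.71% of all genes. With the pairs as a block, 3 hosts of each set were called, all lower, beside 17.0% of all genes. The difference between the sets was not tested. Within the first set the host mRNAs lay apart at the brightest probe, SKA2 and SMC4 being lower while the intervals of VMP1, CTDSPL and NFYC held 0. At the NFYC probes A_23_P22994 and A_33_P3363665 the interval lay below 0. MCM7, whose intronic cluster of miR-106b, miR-93 and miR-25 is not on the list, changed by a value close to that of COPZ1.

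**Figure D3:**
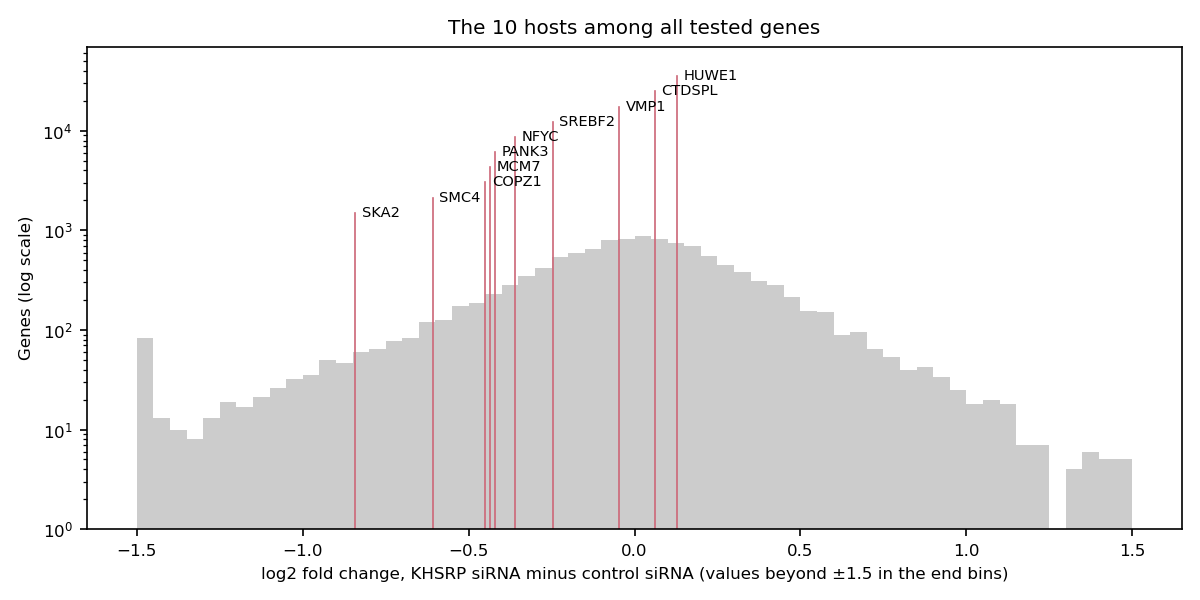
The grey bars count all 12123 tested genes (log axis) by log2 fold change at the brightest probe, with values beyond the axis in the end bins, and red lines mark the 10 hosts. SKA2 and SMC4 lie in the lower tail, COPZ1, MCM7, PANK3 and NFYC between −0.45 and −0.36, and the others nearer 0.

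Some of the miRNAs have a second gene, in a paralog of the host or elsewhere. Outside paralogs, miR-16 is also made from a gene in DLEU2, let-7f from one in MIRLET7A1HG and miR-30c from MIR30C2, and changes at these are not given here. miR-26a is also made from CTDSP2, and miR-103a from PANK2. CTDSP2 was at 4.70 to 4.79 on control and 4.75 to 4.88 on KHSRP siRNA arrays, a change of 0.07 (95% interval −0.15 to 0.28, limma adjusted p = 0.804) beside 0.06 for CTDSPL. PANK2 was at 2.51, 2.23, 2.49 and 2.39 on control siRNA arrays and at 2.71, 2.78, 2.73 and 2.90 on KHSRP siRNA arrays, all 4 above all controls. Its change of 0.38 (95% interval 0.13 to 0.63) had a limma adjusted p of 0.092, and of 0.0188 with the pairs as a block, beside −0.42 for PANK3. The difference between PANK2 and PANK3 was not tested.

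Of the other paralogs, CTDSP1, the host of miR-26b, changed by 0.18 (adjusted p = 0.704), PANK1, the host of miR-107, by 0.16 (0.756) and SREBF1, the host of miR-33b, by 0.34 (0.692), all by limma. COPZ2, the host of miR-152, was not well above background on any array. None of the 5 paralogs tested was called by limma, 1 (PANK2) had an unadjusted p under 0.05, and 1 was called by the methods' t-test after adjustment. Of all genes tested, 20.7% had an unadjusted limma p under 0.05 and 6.77% were called by the methods' t-test after adjustment. All 5 paralogs were above 0 at the brightest probe, but CTDSP2 lay below it under median scaling, and the dimmer tested probes of CTDSP1 (−0.10), CTDSP2 (−0.15) and SREBF1 (−0.04) were below 0.

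Genes that start close to a host on the opposite strand were compared as well, since a bidirectional promoter can serve both. MCM7 and AP4M1, an adaptor protein subunit, start 40 bases apart. AP4M1 was at 0.22, 0.18, 0.18 and 0.48 on control siRNA arrays and at −0.07, −0.13, 0.08 and −0.18 on KHSRP siRNA arrays, with no overlap. The change was −0.34 (limma adjusted p = 0.147, and 0.0122 with the pairs as a block), beside −0.44 for MCM7, and its second probe changed by −0.45 (adjusted p = 0.126). PTRH2, a peptidyl-tRNA hydrolase 224 bases from VMP1, changed by −0.10 (0.787), IFT80, an intraflagellar transport protein 425 bases from SMC4, by −0.30 (0.26) and PRR11, a cell cycle protein 560 bases from SKA2, by −0.20 (0.491). All 4 were below 0 and none was called without a block by limma or by the methods' t-test. An unadjusted limma p was under 0.05 for 1 of them, beside 20.7% of all genes. AP4M1 and IFT80 were called with the pairs as a block, a fit that called 17.0% of all genes lower.

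The complexes and pathways in which the hosts work, and for CTDSPL its gene family, held 43 other genes, here called partners. They include CTDSP1, CTDSP2, PANK1, PANK2 and SREBF1, already given as paralogs. Of the 39 partners tested, 3 were called, all lower (7.69%, against 6.19% of all genes in either direction), and the median change was −0.17. All 3 belong to the complexes of SKA2, SMC4 and COPZ1. With the pairs as a block 14 were called lower and 3 higher, against 17.0% and 15.9% of all genes.

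In the SKA complex, SKA3 fell from a range of 0.93 to 1.21 on control siRNA arrays to 0.35 to 0.80 on KHSRP siRNA arrays, a change of −0.59 (SE 0.14, limma adjusted p = 0.0427). That call was kept in only 1 of the 8 fits that left out an array, with adjusted p up to 0.123. SKA1, the remaining subunit, changed by −0.21 (0.783). In the condensins all 5 tested partners of SMC4 were below 0, with a median of −0.73. NCAPG, a subunit of condensin I, was at −0.25, −0.29, −0.13 and 0.04 on control siRNA arrays and at −1.87, −1.73, −1.06 and −1.43 on KHSRP siRNA arrays. Its change of −1.37 (SE 0.19, limma adjusted p = 0.00549) was called without any 1 of the 8 arrays. SMC2 (−0.73, adjusted p = 0.206) and NCAPD2 (−0.77, 0.0967) were not called without a block. With the pairs as a block, limma called both (adjusted p = 0.00709 and 0.00521), and 4 of the 5 condensin partners in all, against 17.0% of all genes called lower in that fit.

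The partners of MCM7 were below 0 in 5 of 5 cases, from −0.54 for MCM3 (limma adjusted p = 0.0649) to −0.01 for MCM2, with 4 of 5 below 0 under quantile normalization. None was called by limma without a block or by the methods' t-test, while 1 had an unadjusted p under 0.05, beside 20.7% of all genes. With the pairs as a block, limma called 3 of the 5 lower, MCM3 (adjusted p = 0.0121), MCM5 (0.0409) and MCM6 (0.0195), beside 17.0% of all genes. In the coatomer, COPA fell from a range of 0.41 to 0.54 to one of 0.03 to 0.14, a change of −0.40 (SE 0.09, limma adjusted p = 0.047), and the call was lost on leaving out any 1 of the 8 arrays (adjusted p between 0.089 and 0.124). The other 6 coatomer genes tested changed by −0.25 to 0.06 without a call, and with the pairs as a block 2 of the 7 were called lower, beside 17.0% of all genes. In the SREBP pathway 3 of 7 genes were below 0 (4 under median scaling) and none was called, SCAP, the escort protein of the SREBPs, being nearest at 0.44 (limma adjusted p = 0.0501). An unadjusted p was under 0.05 for 1 gene, beside 20.7% of all genes, and the methods' t-test called 1, beside 6.77%. With the pairs as a block, 3 genes of the SREBP pathway were called lower and 1 higher, beside 17.0% and 15.9% of all genes. None of the partners of NFYC (2 tested), CTDSPL (3), PANK3 (5) or VMP1 (3) was called by limma without a block, with medians of −0.08, 0.18, 0.16 and −0.04. An unadjusted p was under 0.05 for 0, 1, 1 and 2 of them, beside 20.7% of all genes, and the methods' t-test called 1 gene, in the list of PANK3, beside 6.77%. With the pairs as a block, 1 partner of PANK3 was called higher, which was PANK2 and the same result as given among the paralogs. In that fit 1 partner of VMP1 was called lower and 1 higher, and no partner of NFYC or CTDSPL was called.

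**Figure D4:**
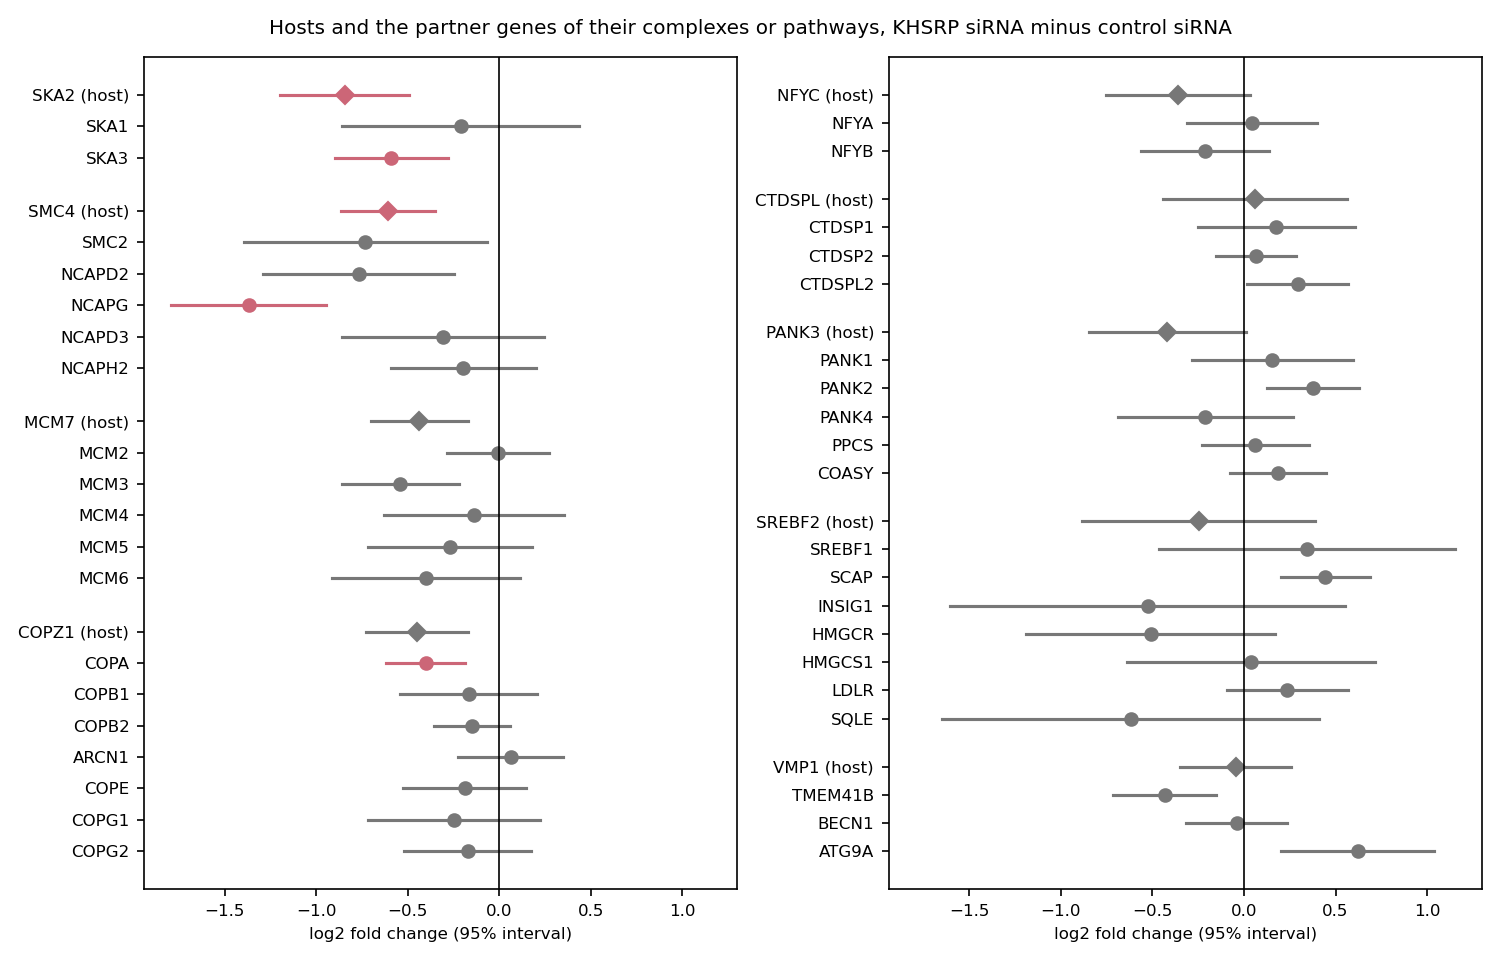
Log2 fold changes (KHSRP siRNA minus control siRNA, horizontal axis) with 95% intervals from limma, red where called at an adjusted p under 0.05. Diamonds are the hosts other than HUWE1 and circles the tested genes of their complex, pathway or gene family. SKA3, NCAPG and COPA are the red circles, and the condensin partners lie between −1.37 and −0.20.

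Other hosts of intronic miRNAs gave a scale for the 10. In a list of 50 further protein-coding hosts, 40 were tested, 1 was called lower and 1 higher (5.0%, against 6.19% of all genes), and the median change was 0.08. CLCN5, a chloride and proton exchanger that carries a miRNA cluster on the X chromosome, changed by −0.91 (SE 0.22, limma adjusted p = 0.0494), and MEST, an imprinted gene that carries miR-335, by 0.53 (SE 0.12, adjusted p = 0.0435). Each of these calls was kept in only 1 of the 8 fits that left out an array. The other tested probe of CLCN5 changed by −0.21 (SE 0.35, limma adjusted p = 0.84), with overlapping groups. Among 22 noncoding host transcripts, 9 were tested and none was called by limma without a block or by the methods' t-test. An unadjusted p was under 0.05 for 2 of them, beside 20.7% of all genes, and 3 were called lower with the pairs as a block, beside 17.0%. Over all protein-coding genes whose RefSeq span holds a miRNA gene on the same strand, the 10 hosts and KHSRP apart, 554 were tested. Of these 20 were called lower (3.61%) and 12 higher, against 4.05% and 2.14% of all genes. The median change was 0.03, and changes ran from −2.70 (ST7, above background on only 1 KHSRP siRNA array) to 1.18 (PDCD4). With the pairs as a block, 79 were called lower and 95 higher, beside 17.0% and 15.9% of all genes.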

How the data were processed

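The mRNA of KYSE850 cells was measured on 8 Agilent arrays with 1 colour, 4 per group, grouped by their labels. The authors scanned the arrays and deposited linear fluorescence intensities per spot, background-subtracted and detrended per the file headers (Feature Extraction 11.5.1.1, design on hg19); the submitters' processing notes name Agilent Feature Extraction 12.6. The authors also deposited a table of log2 values made with GeneSpring per the methods, whose columns for KHSRP siRNA replicates 3 and 4 match the scanner values of each other. Array names here follow the scanner files.

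Control and outlier spots were dropped, spots averaged per probe on the log2 scale, and each array's 75th percentile subtracted. Testing required that a probe be well above background, in 0.5 or more of its spots, on every array of either group. The test was limma 3.58.1 under R 4.3.3 (two-sided, Benjamini-Hochberg over all tested probes, threshold 0.05). Single values were tested by exact permutation tests (scipy 1.17.1). The limma fit was also run on simulated data with independent noise on each array. That simulation held no array sets or pairs, so it does not show how limma behaves with them. Symbols came from RefSeq accessions (GRCh38.p14) for 27237 probes (64.2%). The brightest tested probe of a gene stood for it.

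The replicate numbers of the labels did not pair the arrays (correlations of deviations from the group means of 0.57, 0.48, −0.69 and −0.67). With the numbers of the submitters' value table the correlations were 0.57, 0.48, 0.86 and 0.86 over 17229 probes. Those pairs also shared array set and slide, and arrays of the same set on different slides correlated too (0.40 to 0.45). Whether they were paired samples therefore cannot be told from the arrays. Blocked values beside results use the numbers of the value table. The named genes were the 10 hosts, KHSRP, 6 paralogs, neighbours starting within 1000 bases on the opposite strand, and called genes among partners and other hosts, at most 10 per list. For the list of all protein-coding genes with a miRNA on the same strand, only the ends of the range were named. SKA1, SMC2, NCAPD2, MCM2, MCM3, MCM5, MCM6 and SCAP were named after their values were seen. The hosts and lists were chosen with earlier results of these data known. Alternatives covered scaling, normexp background correction (offset 50), the value table, the filter, slide, replicate and array-set blocks, variance model, the methods' t-test, the mean over probes, and leaving out each array.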

Additional observations from a re-analysis of the deposited data

Results flagged for a closer look

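Of 36 sets of 4 arrays checked over the 18 host probes, 2 held an array far from the other 3, measured by its gap to the nearest array over the whole range of the set; chance alone passes the limit (Dixon's, at 95%) in about 1 set of 20. For SKA2 (A_32_P55860) control siRNA replicate 4, at 0.16, lay below the nearest control array at 0.42 (ratio 0.831). Without it the SKA2 change was −0.91 (limma adjusted p = 0.0306). For the NFYC probe A_23_P22994 control siRNA replicate 3, at 0.60, lay below the nearest at 0.81 (ratio 0.851), and without it the change was −0.42 (limma adjusted p = 0.18).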

How the results depend on the processing

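KHSRP kept its direction and its call under all 22 alternatives (−3.46 to −3.02). SKA2 was lower in all 22 (−0.92 to −0.53) and called in 16, and SMC4 was lower in all 22 (−0.68 to −0.55) and called in 13. MCM7 was lower in all 22 and called in 5 (normexp background correction, the pairs as a block, the intensity trend, the methods' t-test and the array set as a block), COPZ1 in 3, PANK3 in 2 and NFYC in 1. VMP1, HUWE1, SREBF2 and CTDSPL were called in none. Counts below are of all tested probes, then of the 10 hosts, the other hosts and the partners of the hosts. Median scaling gave 570 probes, 1 host (SKA2), 1 other host and 1 partner, against 1039, 2, 2 and 3, and put CTDSPL at −0.0128; it moves the median of all tested probes from 0.01 to −0.06. The 75th percentile of detected probes (1084 probes called) and the intensity trend (1042) each left 1 other host. With normexp, 839 probes, 4 hosts (SKA2, SMC4, MCM7 and COPZ1) and 0 other hosts were called. Without the filter on dim probes, 319 probes, 0 hosts, 0 other hosts and 1 partner were called. The mean over the probes of a gene called 5 partners and put HUWE1 at −0.00506, and its count over all genes is not given here. The methods' t-test called 6 partners and 3 hosts; over all probes it gave 3710 at an unadjusted p under 0.05 and 1081 after adjustment.

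The replicate block by the numbers of the labels, which do not pair the arrays, left 156 probes, 0 hosts, 0 other hosts and 1 partner. The replicate block by the numbers of the submitters' value table gave 5644 probes, 6 hosts, 13 other hosts, 17 partners and 2 neighbours. The array set as a block, added after seeing the data like the other alternatives for partners, neighbours and probe differences and some of those for other hosts, gave 3027, 5, 7 and 12. Since the sets were drawn from the spread that this block removes, its added calls are no separate support. The cause of these differences was not tested. Leaving out 1 array gave between 491 (control siRNA replicate 1) and 741 (KHSRP siRNA replicate 3) probes, 0 to 2 hosts, 0 to 1 other hosts and 1 to 2 partners, with no host called when replicate 1, 2 or 3 of the control siRNA group or replicate 4 of the KHSRP siRNA group was left out. VMP1 then ranged from −0.116 to 0.0181 and CTDSPL from −0.0890 to 0.205. The 4 probe differences with separate groups stayed 4 in number on leaving out each array. That count could not fall, because separate groups stay separate when an array is removed. The number of arrays, 4 a group, limits the precision, and all host probes were well above background.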
